A study of Mus musculus with 8 samples.

Results

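The 10 autosomal genes described here are textbook cases of imprinting by DNA methylation: Peg3, Snrpn, Peg10, Mest, Plagl1, Grb10, Igf2r, Gnas, H19 and Meg3. They were chosen by name and mm9 position, not by their values, though earlier results of these data were known. Each was given a window of the gene span plus 50 kb on either side. Any H3K27me3 peak that shared at least 1 base with a window was assigned to that gene. This took 48 of the 90158 peaks in the Kdm6bMUT list and 5 of the 4991 peaks in the Kdm6bWT list.

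The peaks come from mouse morulae, labelled BDF1xPWK, that is, eggs of 8-week-old BDF1 females with PWK as the paternal strain. Zygotes had received 1.8 µg/µl mRNA for the H3K27 demethylase Kdm6b (Kdm6bWT injected) or for the enzyme in mutant form (Kdm6bMuT injected), between 2.5 and 4 hours after fertilization. Both groups were thus injected, and no uninjected ChIP library was used. Each group has 1 ultra-low-input native ChIP library, called against input, and the input samples carry a tag for no injection although their titles name Kdm6bWT and Kdm6bMUT. The treatment text in the labels describes BDF1 sperm, whereas the strain tag and the extraction text name PWK. How many embryos went into a ChIP library is not given in the sources used here.

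An imprinted gene is expressed mainly from the copy inherited from 1 parent. At the classical loci the parental copies are told apart by DNA methylation that is laid down in the egg or the sperm at a control region and survives the demethylation of the early embryo. H3K27me3, the mark that Polycomb repressive complex 2 places, is a separate repressive layer, and in the egg it can itself act as an imprint at other loci, among them Xist, which the series title names. The peak lists do not separate the parental alleles, so every value below is a sum over both.

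No Kdm6bMUT peak touched the gene span of Peg3, Snrpn, Peg10, Mest, Plagl1, Grb10, Igf2r or Gnas. Of the 10 gene spans, 2 held a Kdm6bMUT peak, those of H19 and Meg3, and 0 held a Kdm6bWT peak. Among all autosomal tiles of 28 kb, the median span length, 34.7% held a Kdm6bMUT peak and 5.23% a Kdm6bWT peak. With tiles cut to each gene's own length, the Kdm6bMUT share ranged from 20.9% (H19, 4 kb) to 50.5% (Grb10, 108 kb), with a mean of 36.1%. A count of 2 among 10 genes lies below that share, but 10 genes are few and no test was made. In bases, Kdm6bMUT peaks covered 2946 bases of the 412 kb of gene spans, or 0.715%, beside 10.3% of the autosomes. That 10.3% is a mean over uneven coverage. The median autosomal tile, cut to the windows' lengths, was covered to between 0% and 1.36%, so a low share was not unusual for a single tile. Whether 0.715% is unusual for a share pooled over 10 spans cannot be read from single tiles of another length, and it was not tested. How much coverage other genes of the same length hold was not measured here, since no mm9 annotation was used.

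Most windows held peaks, although most gene spans did not. Of the 10 windows, 8 held a Kdm6bMUT peak and 4 held a Kdm6bWT peak, against 53.1% and 19.5% of autosomal tiles of 128 kb, the median window length. Kdm6bMUT peaks covered 126.0 kb of the windows, or 8.93%, and Kdm6bWT peaks 5.99 kb, or 0.424%, against 10.3% and 0.140% of the autosomes. The Kdm6bMUT total was uneven: the windows of H19, Gnas and Peg10 held 38 of the 48 peaks and 95.5% of the covered bases. The median window was covered to 0.754%. Coverage was uneven over the autosomes too, where the median tile of a window's length was covered to between 0% and 1.36%. Of tiles of the same length, 4.32% held more than the H19 window, 16.8% more than Gnas and 18.9% more than Peg10. The median rank of the 10 windows among such tiles was 50.9%.

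**Figure D1:**
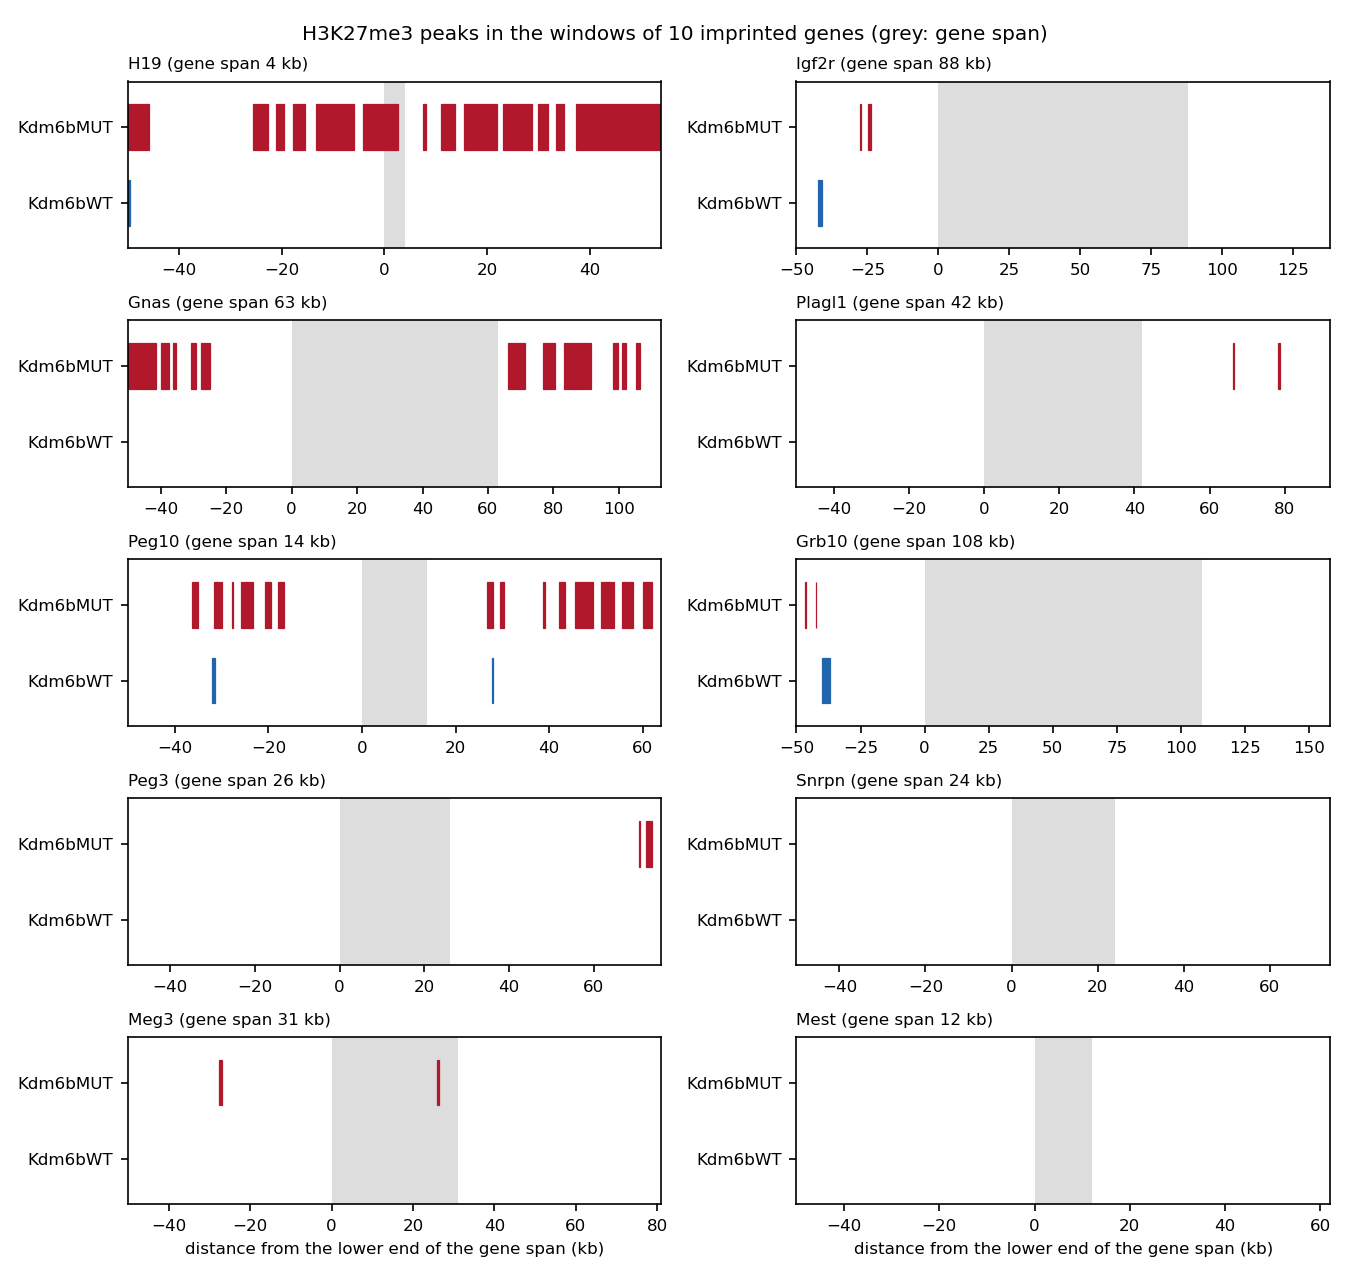
Peaks of each list (red, Kdm6bMUT; blue, Kdm6bWT) in the 10 windows, drawn to scale by distance in kb from the lower end of the gene span, which is shaded grey. Red peaks enter the grey span at H19 and Meg3, blue peaks enter none, and the windows of Snrpn and Mest are empty.

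Grouped by the parent whose copy is methylated in the germline, which is textbook knowledge and not a value of these files, the 10 genes split into 8 with a maternal and 2 with a paternal mark. The 8 maternally methylated loci (Peg3, Snrpn, Peg10, Mest, Plagl1, Grb10, Igf2r and Gnas) had 0 of 8 spans with a Kdm6bMUT peak, over 377 kb. Both paternally methylated loci, H19 and Meg3, had a peak in the span. Of autosomal tiles of each gene's own span length, 28.2% (Mest) to 50.5% (Grb10) held a Kdm6bMUT peak for the 8 maternal loci. For H19 and Meg3 the shares were 20.9% and 35.5%. Most tiles were thus empty at nearly all of these lengths, and the split was not tested. This grouping was made after the values were seen, it rests on 2 genes, and the Meg3 peak has the smallest width in the list. Neither span peak remained among peaks with a −log10 p of at least 3.67, the lowest value of the Kdm6bWT list.

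H19, a maternally expressed noncoding RNA that shares enhancers with the growth factor gene Igf2, had the most heavily covered window. Its span (chromosome 7, 149761000 to 149765000 in mm9) and flanks held 13 Kdm6bMUT peaks over 60.2 kb, or 57.8% of the window. Among 23117 autosomal tiles of the same length, 4.32% held more. The peak inside the span ran from 149756854 to 149763645, so 2646 bases of the span, 66.1%, were covered. Its fold enrichment of ChIP over input, the authors' own value, was 3.02 and its −log10 q 1.76. The end of the span on the higher-coordinate side was free of peaks, and the next peak began 3.59 kb beyond it. That interval without a peak, 149763646 to 149768592, was 4.95 kb long. H19 is transcribed towards lower coordinates, so the interval lies at and upstream of the start of the gene as the rounded span gives it. RefSeq gives H19 a length of 2.62 kb, against 4 kb for the span, so the start may lie elsewhere in the span. The methylated control region also lies upstream, but it was not placed on the peaks here.

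Coverage of the H19 flanks was 44.7% on the lower and 70.3% on the higher side. The widest peak of all 10 windows lay on the higher side, towards Igf2 in the RefSeq order of genes. It spanned 26966 bases (149798362 to 149825327), ran past the window's edge, and was exceeded in width by 0.243% of the Kdm6bMUT list. Its fold enrichment was 3.43. The highest-scoring H19 peak (149790974 to 149792970) had a score of 25 and a fold enrichment of 3.61. In the Kdm6bWT list the H19 window held 1 peak of 507 bases, at its lower edge (149710817 to 149711323), with a fold enrichment of 3.69. All of its bases lay on a Kdm6bMUT peak, and 324 of them were inside the window. Thus 60.2 kb of Kdm6bMUT coverage stood beside 0.324 kb in the Kdm6bWT list.

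Meg3, a maternally expressed noncoding RNA of the Dlk1-Dio3 cluster on chromosome 12, had little coverage in either list. Its window held 2 Kdm6bMUT peaks over 1.00 kb, or 0.764%, near the 0.520% of the median tile of that length. The peak in the span (110804985 to 110805284) was 300 bases wide, the smallest width in the lists, and had a fold enrichment of 2.99. The other, 701 bases at 110751358 to 110752058, lay 26.9 kb below the span with a fold enrichment of 2.84. No Kdm6bWT peak fell in the window, and the nearest was 85.9 kb away.

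Gnas, which encodes the stimulatory G protein alpha subunit and has several promoters with different imprints, was a gap inside a heavily covered region. Kdm6bMUT peaks covered 32.3% of the lower and 42.2% of the upper flank but none of the 63 kb span (chromosome 2, 174110000 to 174173000). The interval without a peak was 91.2 kb long (174084949 to 174176148) and ended 3.15 kb above the gene. With flanks of 500 kb, 37.4% of the surroundings was covered, the highest value of the 10 genes. The window held 11 Kdm6bMUT peaks over 37.3 kb. Its widest and highest-scoring peak, 19.1 kb (174049396 to 174068470), had a score of 22 and a fold enrichment of 3.35, and 0.773% of the list was wider. In the Kdm6bWT list the Gnas window had 0 peaks, and the nearest lay 113 kb below the span.

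Peg10, a paternally expressed gene derived from a retrotransposon and needed for the placenta, showed the same arrangement on a smaller scale. Its window held 14 Kdm6bMUT peaks over 22.9 kb, or 20.1%, with 6 peaks on the lower and 8 on the higher side of an interval of 43.4 kb without any (4680348 to 4723787). The 14 kb gene span (chromosome 6, 4697000 to 4711000) lay inside that interval, 16.7 kb from the nearest peak below and 12.8 kb from the nearest above. The lower side is that of Sgce, the imprinted neighbour in the RefSeq order. The widest peak measured 3.92 kb (4742530 to 4746448), with a fold enrichment of 3.19. The highest-scoring Peg10 peak, at 36, was 463 bases wide (4735706 to 4736168) and had a fold enrichment of 4.35, exceeded by 0.185% of the list.

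Peg10 was also the gene with the most Kdm6bWT peaks, 2 in all, and both touched Kdm6bMUT peaks at their edges. The lower one, 644 bases at 4664927 to 4665570, had a fold enrichment of 3.63 and shared 219 bases, or 34.0% of its width. The upper one, 300 bases at 4724798 to 4725097, had 3.87 and shared 108 bases, or 36.0%. Intervals without peaks as long as those of Gnas and Peg10 were common: Kdm6bMUT intervals of at least 91.2 kb made up 66.6% of the autosomal length, and those of at least 43.4 kb 71.4%.

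**Figure D2:**
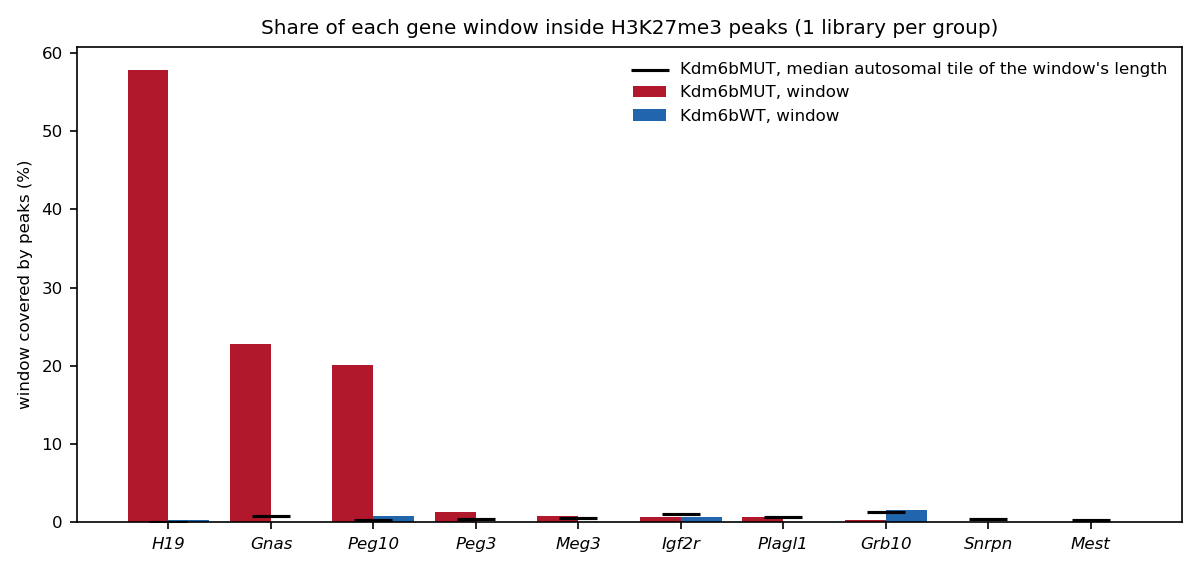
Percent of each gene window inside peaks of the Kdm6bMUT list (red bars) and the Kdm6bWT list (blue bars), 1 library each and hence without error bars; black lines give the median Kdm6bMUT coverage of autosomal tiles of the same length. H19, Gnas and Peg10 stand at 57.8%, 22.9% and 20.1%, and the next, Peg3, is at 1.31%.

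The other 7 windows held 10 Kdm6bMUT peaks, which covered 0.551% of them. Snrpn, a paternally expressed gene of the Prader-Willi region, and Mest, a paternally expressed hydrolase gene, had 0 peaks of either list. Between 47.6% and 49.0% of autosomal tiles of those lengths were as empty of Kdm6bMUT peaks, so an empty window was not unusual. The peak-free interval around Snrpn (chromosome 7, 67127000 to 67151000) was 1065 kb long, and that around Mest (chromosome 6, 30687000 to 30699000) 1295 kb. Kdm6bMUT intervals at least as long made up 20.4% and 15.7% of the autosomal length. With 500 kb flanks the surroundings differed: 0.318% was covered around Snrpn and 14.3% around Mest, where the coverage lay beyond 294.9 kb on the higher-coordinate side.

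Peg3, a paternally expressed zinc finger gene, and Plagl1, another zinc finger gene expressed from the paternal copy, each had 2 Kdm6bMUT peaks, all above the span. The Peg3 window was covered to 1.31% and the Plagl1 window to 0.720%. At Peg3 (chromosome 7, 6658000 to 6684000) the wider and higher-scoring peak was 1.22 kb (6730474 to 6731697), with a score of 36 and a fold enrichment of 4.35, exceeded by 0.184% of the list. The peak beside it (6728625 to 6729056) had 2.80. At Plagl1 (chromosome 10, 12810000 to 12852000) the wider peak was 533 bases (12888166 to 12888698), with a score of 18 and a fold enrichment of 2.88. The peak nearer to Plagl1 (12876132 to 12876621) had 2.59, the lowest of the 48. No Kdm6bWT peak lay in either window.

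Grb10, which encodes an adaptor that restrains growth factor signalling, and Igf2r, the maternally expressed receptor that clears Igf2, were the windows in which Kdm6bWT peaks lay away from Kdm6bMUT peaks. Grb10 (chromosome 11, 11830000 to 11938000) had more Kdm6bWT than Kdm6bMUT coverage, 3363 against 600 bases. Its Kdm6bMUT peaks were both 300 bases wide (11783503 to 11783802 and 11787504 to 11787803), with fold enrichments of 2.89 and 3.07. The Kdm6bWT peak, 3363 bases at 11789782 to 11793144, began 1.98 kb from the nearer of them and ended 36.9 kb below the gene. Its fold enrichment was 3.89, and 0.381% of the Kdm6bWT list was wider. Among 11554 autosomal tiles of that length, 0.666% held more Kdm6bWT coverage. Above Grb10 the Kdm6bMUT list had no peak for 1422 kb. The whole peak-free interval around Grb10 was 1572 kb long, and intervals at least as long made up 11.6% of the autosomal length.

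At Igf2r (chromosome 17, 12875000 to 12963000) coverage was nearly equal, 1.40 kb in the Kdm6bMUT list and 1.36 kb in the Kdm6bWT list, at different positions. The Kdm6bMUT peaks were 1006 bases wide (12850320 to 12851325, fold enrichment 2.89) and 394 bases wide (12847399 to 12847792, score 25, fold enrichment 3.50). The Kdm6bWT peak (12832735 to 12834091) was 1357 bases wide and lay 8.91 kb from the nearest Kdm6bMUT peak. Its fold enrichment of 3.46 was lower than that of 97.0% of the Kdm6bWT list. All 3 lay below the span. No peak of either list lay in the higher flank, on the side of the antisense RNA Airn, whose promoter carries the imprint.

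**Figure D3:**
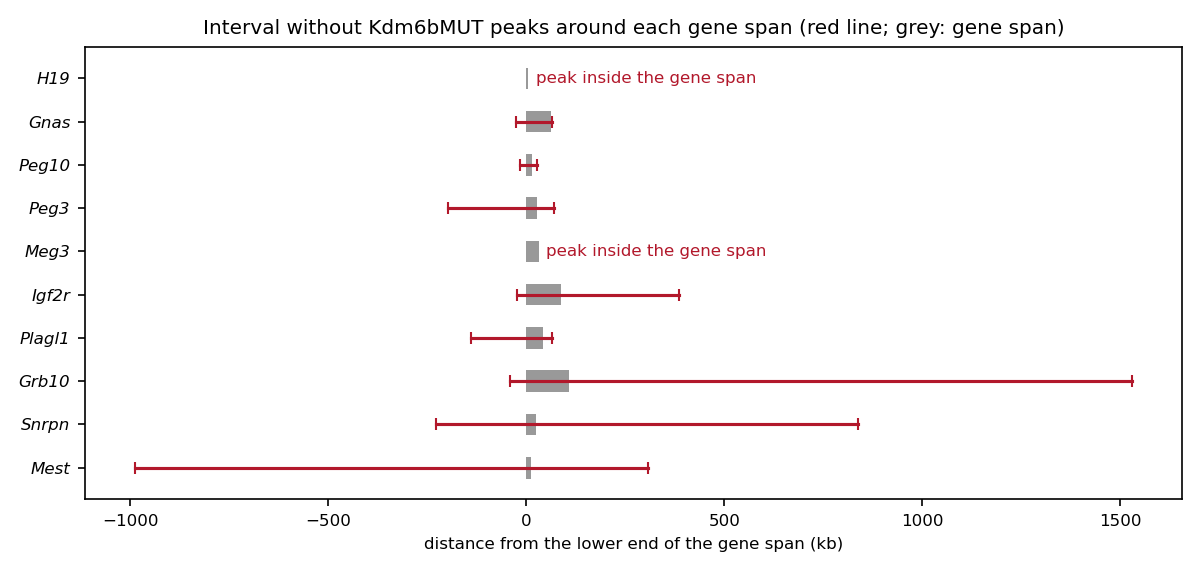
Interval free of Kdm6bMUT peaks around each gene span (red lines with end marks; grey bars, gene span), by distance in kb from the lower end of the span. For H19 and Meg3 a peak lies in the span; for the other genes the interval runs from 43.4 kb at Peg10 to 1572 kb at Grb10.

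Over all 10 windows the Kdm6bMUT coverage was 21.0 times the Kdm6bWT coverage, below the 73.3 times of the autosomes, and the genes differed widely. In the windows of H19, Gnas and Peg10, 120.4 kb of Kdm6bMUT coverage stood against 1.27 kb in the Kdm6bWT list, a ratio of 94.9. In the other 7 windows, 5.68 kb stood against 4.72 kb, a ratio of 1.20, which rests on the Grb10 and Igf2r peaks. These sets of 3 and 7 genes were formed after the coverage was seen, from the Kdm6bMUT coverage that enters the ratio, so the contrast between them is a description. Read depth is unknown for both libraries, and a list from a shallower library is shorter, so depth and demethylation cannot be told apart.

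Of the 48 Kdm6bMUT peaks in the windows, 3 touched a Kdm6bWT peak, or 6.25% (95% exact Clopper-Pearson interval 1.31% to 17.2%), near the 2.66% of the whole list, which lies inside the interval. Of the 5 Kdm6bWT peaks, 3 lay on a Kdm6bMUT peak (60.0%, 14.7% to 94.7%), against 49.5% of that list. When 50% of the peak had to be covered, 1 of the 5 counted, since both Peg10 peaks share less than that. The intervals reflect the number of peaks alone, and peaks beside each other are not independent observations. Shared bases made up 0.517% of the Kdm6bMUT coverage in the windows and 0.604% in the whole list.

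By median the Kdm6bMUT peaks were close to their list, though several peaks named above were among its widest or highest in fold enrichment. For the 48 Kdm6bMUT peaks the median width was 1515 bases and the median fold enrichment 3.03, beside 1577 bases and 3.07 in the list. In the windows of H19, Gnas and Peg10 the median width was 2136 bases. In the other windows it was 461 bases, below the list's lower quartile of 781 bases. The median fold enrichments were 3.07 and 2.89. These sets of genes were formed from covered bases, which peak widths make up. Wider peaks at H19, Gnas and Peg10 are therefore partly built in, and the contrast in width is a description. For the 5 Kdm6bWT peaks the median width was 644 bases, beside 493 bases in the list, and fold enrichments ran from 3.46 to 3.89, beside quartiles of 3.64 and 4.15. Fold enrichments are not compared between the lists, because each list has its own threshold.

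**Figure D4:**
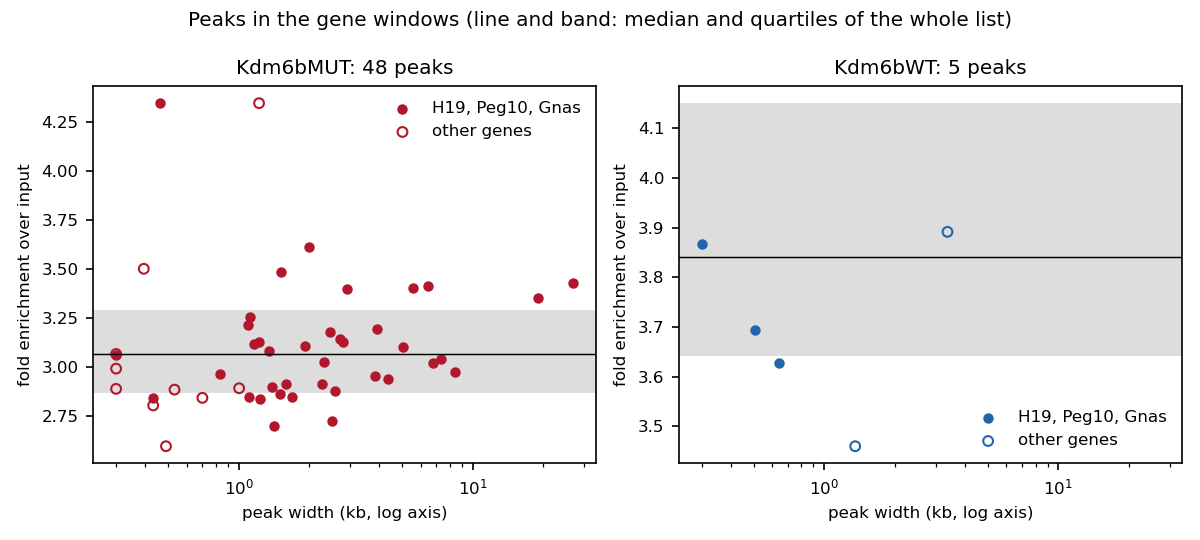
Fold enrichment over input against peak width in kb (log axis) for the 48 Kdm6bMUT and 5 Kdm6bWT peaks of the windows; filled points belong to H19, Peg10 and Gnas, open points to the other genes, and the line and grey band give the median and quartiles of the whole list. The Kdm6bMUT peaks lie around the list's median of 3.07, and those of the other genes are mostly under 1 kb wide. The filled and open sets were formed from coverage, which peak width enters.

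Flank coverage varied with distance from the genes without a steady trend. Within 10 kb of the span ends, 2 genes had Kdm6bMUT coverage (H19 and Gnas) and 8.10% of the bases were covered. In the following steps of 10 kb, the covered share was 10.6% (3 genes), 15.5% (6 genes), 12.2% (4 genes) and 15.1% (5 genes). On the lower side alone the lowest value, 7.07%, lay between 30 and 40 kb and not next to the genes. On the higher side the lowest value, 8.04%, lay within 10 kb of the genes. The following steps on that side held 13.1%, 17.7%, 17.4% and 17.1%. Kdm6bWT peaks covered 0% within 10 kb of any of the 10 spans, and also 0% between 20 and 30 kb. Over the autosomes, Kdm6bMUT peaks covered 10.3% and Kdm6bWT peaks 0.140%. Of autosomal tiles of 12 kb, the counted length nearest to 10 kb, 28.2% held a Kdm6bMUT peak and 2.42% a Kdm6bWT peak. The gene counts above take both sides of a gene together. The Kdm6bMUT shares describe mainly H19, Gnas and Peg10, whose windows held 95.5% of the covered bases.

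Peaks were absent near the starts of most of the genes. RefSeq promoter sequences (GRCm38.p6) matched 8 of the 10 genes by symbol, in 18 windows; H19 and Peg10 were not matched. Within 2.5 kb of the end of the span at which those 8 genes start, neither list had a peak. Of autosomal tiles of 4 kb, 20.9% held a Kdm6bMUT peak and 0.930% a Kdm6bWT peak. Most short tiles were thus without a peak too, and no test was made. Tiles of exactly the length of the start regions were not counted. For Peg10 neither end of the span had a peak within 2.5 kb. For H19 both ends had Kdm6bMUT coverage within it, 5001 bases around the lower end and 1146 bases around the higher end, where the gene starts. CpG, the dinucleotide that carries DNA methylation, was counted in the 250 bases upstream of each start and set beside 32851 promoter windows, whose median was 6 and upper quartile 16. Taking each gene's highest window, Grb10 (40 CpG), Gnas (29), Igf2r (27) and Plagl1 (19) passed the upper quartile. Mest (14), Meg3 (10) and Peg3 (8) lay between the median and that quartile, and Snrpn (4) lay below the median. Genes with several windows had more chances of a high count.

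The motif TGCCGC, which the zinc finger protein ZFP57 binds when methylated to protect imprints, was searched on both strands. It occurred at 3 of the 8 genes, Mest, Plagl1 and Meg3. Of the 18 windows 4 held it, or 22.2%, beside 8.68% of all promoter windows of that length. But 2 of the 4 are Mest windows that overlap almost entirely and share the same matches, so the counts of windows are not independent. Genes with several windows had more chances of a match. The motif contains a CpG, and the 2 sets of promoters were not matched for CpG count. The 3 promoters with the motif are shown as examples of sequence at gene starts without an H3K27me3 peak, together with Grb10, which had 40 CpG, more than 98.7% of promoter windows, and no motif. They are the 250 bases before the RefSeq start, 5′ to 3′ on the gene's strand, and capitals mark the motif, which reads GCGGCA where it lies on the opposite strand. Their GRCm38.p6 positions, which are not those of the mm9 peaks, are chr6:30737800-30738049 (Mest, plus strand), chr10:13090582-13090831 (Plagl1, plus), chr12:109540746-109540995 (Meg3, plus) and chr11:12037421-12037670 (Grb10, minus).
Mest: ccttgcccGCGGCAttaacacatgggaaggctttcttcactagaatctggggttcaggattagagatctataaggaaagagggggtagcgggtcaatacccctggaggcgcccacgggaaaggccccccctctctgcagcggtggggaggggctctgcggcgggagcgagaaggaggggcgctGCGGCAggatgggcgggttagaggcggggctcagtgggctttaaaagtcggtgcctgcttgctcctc
Plagl1: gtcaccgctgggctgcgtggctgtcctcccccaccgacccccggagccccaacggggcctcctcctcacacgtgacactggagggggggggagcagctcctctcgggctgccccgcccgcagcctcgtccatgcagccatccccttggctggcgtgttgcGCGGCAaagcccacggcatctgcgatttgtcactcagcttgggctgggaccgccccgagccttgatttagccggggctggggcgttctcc
Meg3: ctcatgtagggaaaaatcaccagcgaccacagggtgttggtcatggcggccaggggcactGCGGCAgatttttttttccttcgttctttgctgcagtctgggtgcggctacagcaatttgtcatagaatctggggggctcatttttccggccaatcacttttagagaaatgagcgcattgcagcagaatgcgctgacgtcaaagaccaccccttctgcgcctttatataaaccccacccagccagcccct
Grb10: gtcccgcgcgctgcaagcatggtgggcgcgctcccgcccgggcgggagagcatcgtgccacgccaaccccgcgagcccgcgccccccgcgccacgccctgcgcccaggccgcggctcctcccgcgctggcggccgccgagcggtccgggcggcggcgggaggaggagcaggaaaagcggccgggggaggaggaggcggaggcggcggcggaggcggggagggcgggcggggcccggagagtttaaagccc

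Mest carried 2 matches with 14 CpG, Plagl1 1 match with 19 CpG and Meg3 1 match with 10 CpG. A match describes the letters and not binding. The windows of Peg3, Igf2r, Gnas and Snrpn held no match in these 250 bases, and their control regions may lie elsewhere, as that of Igf2r does inside the gene.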

How the data were processed

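Peak lists of 2 H3K27me3 ChIP-seq libraries of mouse morulae, 1 per injection, were analysed; RNA-seq was not analysed here. The submitters' processing notes list the build mm9 with MACS2, Bowtie2 2.2.2, featureCounts, STAR and Subread 1.5.1, and assign none of them to a step. Each peak has a fold enrichment over input (a ratio), a whole-number score, a −log10 p and a −log10 q, all as deposited by the authors. Caller settings are not stated in these sources. Read depth is unknown, so precision from depth cannot be given.

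Gene spans were mm9 positions rounded to 1 kb. Their lengths differed from RefSeq gene lengths by at most 1.38 kb for 8 genes, were 12 against 15.0 kb for Mest, and 24 against 468 kb for Snrpn, whose RefSeq model has far upstream exons. The positions were not checked against an mm9 annotation, and nothing was converted between builds. RefSeq (GRCm38.p6) gave gene order and, by symbol for 8 genes, strands and promoter sequences. The direction of H19 is given as background. Positions are counted from 1. Windows were compared with all adjoining autosomal tiles of the same length, between the first and last peak of a chromosome. Overlap meant at least 1 shared base. Python 3.11.15, numpy 2.4.6, pandas 2.3.3, scipy 1.17.1 and matplotlib 3.10.9 were used, and overlap counting was tested on simulated peaks with known answers.

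With 1 library per group no test and no p-value could be had. All 10 genes are named, each with its widest and its highest-scoring Kdm6bMUT peak and its Kdm6bWT peaks; other peaks were picked after their values were seen. The genes and measures were chosen with earlier results of these data known. Alternatives were other flanks (0, 10, 100 and 500 kb), floors on score, −log10 p and width, an overlap of 50%, and leaving out each gene.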

Additional observations from a re-analysis of the deposited data

How the results depend on the processing

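No paired analysis was possible because the ChIP libraries number 1 per group. Unknown depth limits what either list could detect. Fewer bases or peaks enter by construction with narrower windows and with floors; otherwise the cause was not tested. Genes with a Kdm6bMUT peak numbered 2 in the gene span alone, 3 with 10 kb flanks and 5 among peaks of at least 1 kb, in place of 8. Genes with a Kdm6bWT peak numbered 0 in the span alone, 0 with 10 kb flanks, 2 at a score of at least 13 and 2 at 1 kb, in place of 4. The covered share in the Kdm6bMUT list, 8.93% in the report, was 0.715% in the spans, 3.13% with 10 kb flanks and 5.01% at a −log10 p of at least 3.67. In the Kdm6bWT list it was 0% in the spans, 0% with 10 kb flanks, 0.259% at the score floor and 0.166% with 500 kb flanks (added after seeing the data), in place of 0.424%. Leaving out 1 gene at a time gave 5.04% (without H19) to 10.4% and 0.218% (without Grb10) to 0.479%. Kdm6bMUT peaks touched by a Kdm6bWT peak were 0% when 50% of the peak had to be covered, in place of 6.25%. They were 0% among peaks of at least 1 kb and 2.08% at the score floor, with each floor put on both lists. The 3 touched Kdm6bMUT peaks were themselves wider than 1 kb (4369, 1698 and 1118 bases). The 0% at 1 kb arose because their Kdm6bWT partners, of 507, 644 and 300 bases, were removed. Kdm6bWT peaks on Kdm6bMUT peaks numbered 1 of 5 under the 50% rule, in place of 3, and made up 71.4% with 100 kb flanks, in place of 60.0%. In settings added after seeing the data, gene spans with a Kdm6bMUT peak numbered 0 at the −log10 p floor and 1 at 1 kb. The median rank of a window among tiles was 50.9%, and 54.4% at 1 kb.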
